A study of Mus musculus with 6 samples.

Results

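The genes described here belong to the unfolded protein response and the integrated stress response, and were measured in mouse lenses at E13.5, a day of embryonic development. They were taken by name, as Atf4, Atf6, Ern1, Xbp1, Ddit3, Trib3, Asns, Chac1, Herpud1 and Ppp1r15a, and all 10 were present among the 41128 features listed for each library. Expression was measured by RNA sequencing in 3 libraries of Prox1 cKO lenses, genotype Prox1 f/f MLR10Cre+, and in 3 libraries of wild type C57Bl/6 lenses. Each library came from a pool of 30 lenses and is labelled a biological replicate, and the strain is labelled C57Bl/6 in both groups. MLR10-Cre is a transgene that drives Cre recombinase in lens epithelial and fibre cells, so Prox1, a homeodomain transcription factor gene of fibre differentiation, is removed within the lens. No library carried the transgene alone or the floxed alleles alone, so effects of the transgene, of the floxed background and of Prox1 loss cannot be told apart. No source says whether litters were shared between pools, and p-values therefore measure the spread between these pools.

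The unfolded protein response is a set of signals from the endoplasmic reticulum (ER) to the nucleus that is set off when unfolded proteins build up there. Its sensors are IRE1, encoded by Ern1, which splices Xbp1 mRNA, ATF6, which is cut and released as a transcription factor, and PERK, encoded by Eif2ak3, which phosphorylates the translation factor eIF2. Phosphorylated eIF2 is also the hub of the integrated stress response, where kinases for amino acid shortage, haem shortage and viral RNA meet, and it favours translation of ATF4, an activator of genes for amino acid supply and, with prolonged stress, of Ddit3. Because ATF4 is set largely by translation, ATF6 by cleavage and XBP1 by splicing, mRNA levels report on the amount of transcript and not on the activity of these proteins. Differentiating lens fibres make large amounts of protein, and both responses have been studied there.

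Library totals lay between 9082219 and 28391662 counts in the cKO and between 20731491 and 21061582 counts in the wild type. Levels are given as CPM, a count scaled to a common library size, after TMM scaling, a correction for differences in RNA composition. Prox1 itself, the targeted gene, had 651, 728 and 707 CPM in cKO libraries 1, 2 and 3 and 922, 1215 and 1246 CPM in wild type libraries 1, 2 and 3 (log2 change -0.70, SE 0.141, edgeR adjusted p 0.0074, or 0.0532 with library totals as the only scaling). Which exons are floxed is not stated in the labels, and the counts cover the whole gene. Crystallin genes took 13.2%, 21.5% and 22.7% of counts in wild type libraries 1, 2 and 3 and 2.83% to 3.14% in the cKO. The 7 fibre markers matched by name all fell, with summed levels of 18749 to 21326 CPM in the cKO and 92304 to 172534 CPM in the wild type. Lim2, also planned as a fibre marker, was not matched by name and was left out. Markers of several other tissues rose in the cKO, all or some of each list. The 6 pigment cell markers summed to 248 to 701 CPM in the cKO and 52.2 to 164 CPM in the wild type, with 6 of 6 called. The 5 surface ectoderm markers summed to 20.3 to 97.2 and 3.72 to 14.6 CPM, with 5 of 5 called, and the periocular mesenchyme markers to 149 to 416 and 55.4 to 137 CPM, with 2 of 5 tested called and Foxc2 at 0 counts in all 6 libraries. These 3 lists were highest in cKO library 3. The 8 neural retina markers summed to 370 to 576 CPM in the cKO and 261 to 381 CPM in the wild type. These sums overlapped between the groups, and 2 of 8 markers were called higher. Sums of erythroid (1410 to 2256 and 782 to 2632 CPM), endothelium (343 to 456 and 217 to 395 CPM) and macrophage markers (62.6 to 88.3 and 32.8 to 72.4 CPM) overlapped between the groups, with 3 of 9 erythroid and 1 of 6 endothelium markers called higher. The part that these cells have in the results below was not tested. In whole lens pools, fewer cells of a type and less RNA per cell cannot be told apart.

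Of the 10 stress response genes, Atf4, Atf6, Asns and Herpud1 fell in the cKO, and none rose. The decreases ranged from 1.47-fold for Herpud1 to 2.03-fold for Asns. Ern1, Xbp1, Ddit3, Trib3 and Ppp1r15a were not called, and Chac1 did not reach the count minimum. The test was the edgeR quasi-likelihood test with Benjamini-Hochberg adjustment over all 14271 features tested and a threshold of 0.05. By that rule 32.6% of all features were called, 16.8% lower and 15.9% higher, so the 4 decreases, 44.4% of the 9 tested members, stand beside changes in a large share of all features. No member rose by edgeR, DESeq2 or limma-voom, and the number was also 0 for each at an unadjusted p under 0.05. Atf4, Atf6, Asns, Herpud1 and Ddit3, 5 of the 9 tested, had every cKO library below every wild type library, where 50.1% of all features had groups that did not overlap and 25.7% lay lower in the cKO. The median log2 change of the 9 tested genes was -0.28, against 0.04 over all features tested. With library totals as the only scaling, the median of all features moved to 0.39, 5423 features were called higher and 945 lower in place of 2263 and 2396, Asns was the 1 member called lower and Ern1 the 1 called higher.

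**Figure D1:**
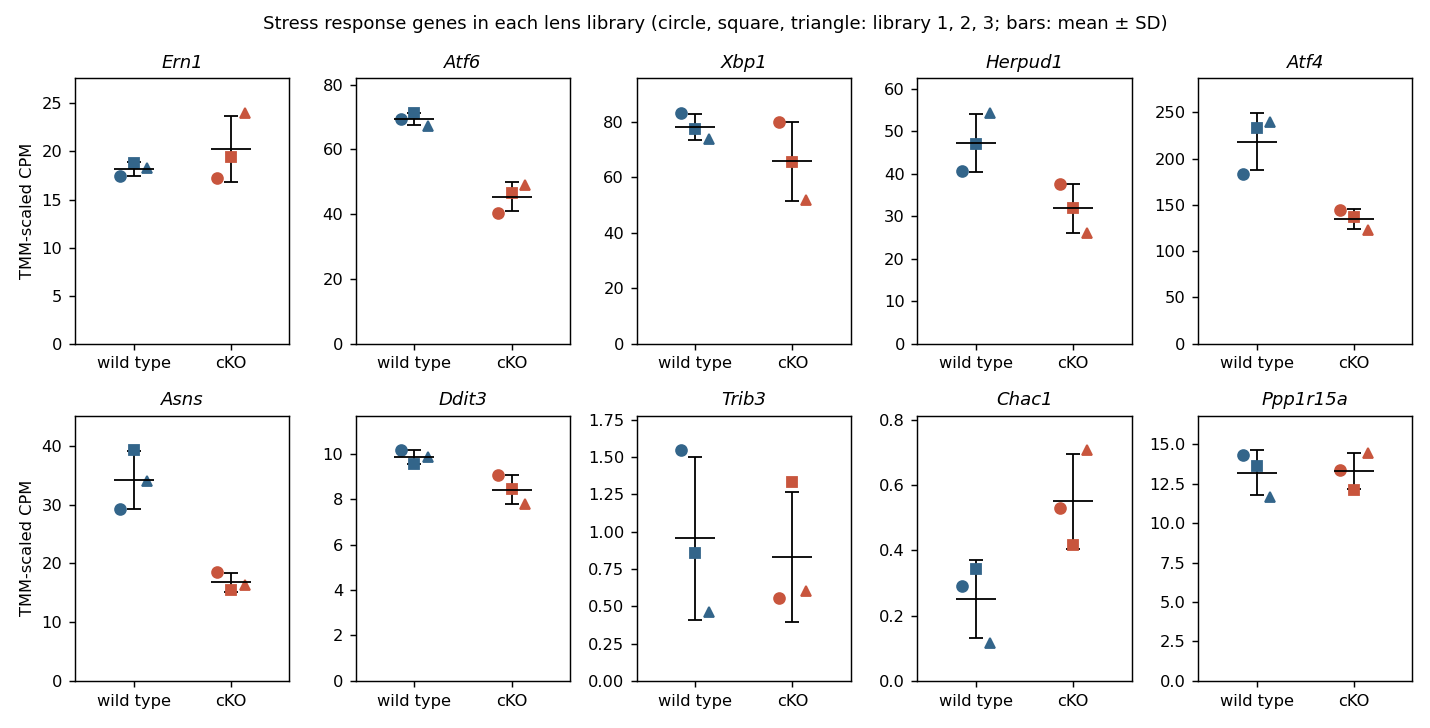
Level of each of the 10 genes in each library, in TMM-scaled CPM on axes that start at 0, for wild type (blue) and cKO (red) lenses, with circles, squares and triangles for libraries 1, 2 and 3 and bars for the mean ± SD. All cKO libraries lie below all wild type libraries for Atf6, Herpud1, Atf4, Asns and Ddit3, and Chac1 stays under 1 CPM in every library.

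To compare levels between genes, the deposited RPKM, which divide by gene length, were carried to the TMM scale. In the wild type the order was Atf4 (127 ± 17.9 RPKM), Xbp1 (24.0 ± 1.45), Herpud1 (20.3 ± 2.93), Asns (12.5 ± 1.81), Atf6 (9.57 ± 0.265), Ddit3 (5.75 ± 0.169), Ppp1r15a (4.49 ± 0.479), Ern1 (2.23 ± 0.0869), Trib3 (0.449 ± 0.258) and Chac1 (0.152 ± 0.073), all as mean ± SD of n = 3 libraries. Atf4 transcript was thus several times more abundant per length than any other member, and Trib3 and Chac1 were at the bottom. Xbp1 and Herpud1 overlapped between wild type libraries and other neighbours in the order did not. Trib3 and Chac1 were barely apart. Trib3 had 0.217 RPKM (8 counts) in wild type library 3, and Chac1 had 0.21 RPKM (6 counts) in wild type library 2. In the cKO the order was the same except that Atf6 (6.26 ± 0.609 RPKM) and Asns (6.13 ± 0.596 RPKM) changed places, and their libraries overlapped. Xbp1 and Herpud1, Ddit3 and Ppp1r15a, and Trib3 and Chac1 overlapped there as well.

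Among the ER sensors, Atf6 fell and Ern1 was not called. Atf6 encodes a membrane-bound transcription factor that is cut in the Golgi apparatus and then activates genes of ER chaperones (GRCm38 chromosome 1, 170704674 to 170867771, minus strand). It had 40.5, 46.7 and 49.0 CPM in cKO libraries 1, 2 and 3 and 69.5, 71.2 and 67.4 CPM in wild type libraries 1, 2 and 3. The groups did not overlap and the wild type libraries lay close together. Atf6 fell 1.53-fold (log2 change -0.62, SE 0.099, edgeR adjusted p 0.00267). The log2 change stayed between -0.67 and -0.54 when any 1 library was left out. With library totals as the only scaling it was not called (edgeR adjusted p 0.11), and its change was -0.66 relative to the median of all features there. Ern1 encodes the kinase and endoribonuclease IRE1 (chromosome 11, 106394650 to 106487852, minus strand). Its levels were 17.3, 19.5 and 24.0 CPM in the cKO and 17.4, 18.8 and 18.3 CPM in the wild type. Library 3 was the highest cKO library and library 1 lay below all wild type libraries. The log2 change was 0.14 (edgeR adjusted p 0.46), with a 95% interval of -0.18 to 0.47. With totals only it was called higher (0.49, edgeR adjusted p 0.0311), 0.10 above the median there.

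Xbp1 encodes the transcription factor that IRE1 switches on by removing a short intron from the mature mRNA (chromosome 11, 5520659 to 5525893, plus strand). That intron, found in the GENCODE transcripts of the gene by its splice loops, is 26 bases long and lies in the coding sequence at chromosome 11, 5524282 to 5524307. It is shown in capitals because the active and inactive forms of the mRNA differ only by these bases, and a count per gene holds reads of both forms.
Xbp1 intron: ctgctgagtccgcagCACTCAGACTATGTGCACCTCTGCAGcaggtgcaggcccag
The splicing state was therefore not measured. Total Xbp1 was 79.9, 65.4 and 51.6 CPM in cKO libraries 1, 2 and 3 and 83.1, 77.4 and 73.7 CPM in wild type libraries 1, 2 and 3. cKO library 1 lay among the wild type libraries and the other cKO libraries lay below them. The log2 change was -0.24 (edgeR adjusted p 0.237) with a 95% interval of -0.58 to 0.10. The result turned on cKO library 1, without which Xbp1 fell by 0.42 (edgeR adjusted p 0.0403).

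Herpud1 encodes a ubiquitin-like membrane protein of the ER that takes part in the degradation of misfolded proteins and is induced by both responses (chromosome 8, 94386438 to 94395377, plus strand). Its promoter is shown because it was the 1 member whose window held recognition motifs of more than 1 arm. Windows from 250 bases before to 50 after the RefSeq start (GRCm38.p6) were found for 9 of the 10 genes, all but Atf6. The motifs below were searched on both strands. They were the C/EBP-ATF response element (CARE, TGATGNAA) bound by ATF4 with a partner, the ER stress element (ERSE, CCAAT and CCACG with any 9 bases between them), its second form (ERSE-II, ATTGG and CCACG with any 1 base between them), an XBP1 and ATF6 element (UPRE, TGACGTGG) and the cyclic AMP response element (CRE, TGACGTCA). CARE was found in 3.97% of 32851 such windows, ERSE in 0.119%, ERSE-II in 0.0365%, UPRE in 0.676% and CRE in 1.79%. In Herpud1, at chr8:94386297-94386407 on the plus strand, capitals mark a CARE on the opposite strand and then an ERSE-II.
Herpud1 promoter: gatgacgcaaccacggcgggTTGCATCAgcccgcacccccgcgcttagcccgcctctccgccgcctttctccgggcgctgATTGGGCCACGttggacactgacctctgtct
A match is a description of the letters and not of binding. Herpud1 had 37.6, 31.98 and 26.1 CPM in cKO libraries 1, 2 and 3 and 40.7, 47.1 and 54.3 CPM in wild type libraries 1, 2 and 3. The groups did not overlap, though the highest cKO library came close to the lowest wild type library. Herpud1 fell 1.47-fold (log2 change -0.56, SE 0.157, edgeR adjusted p 0.0271). The call was lost without cKO library 2 (edgeR adjusted p 0.0696) or 3 (0.0614), without wild type library 2 (0.0764) or 3 (0.0911), and with totals only (0.372).

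Atf4 encodes the transcription factor at the centre of the integrated stress response (chromosome 15, 80255184 to 80257541, plus strand). It had 145, 137 and 123 CPM in cKO libraries 1, 2 and 3 and 183, 233 and 239 CPM in wild type libraries 1, 2 and 3. The groups did not overlap, and wild type library 1, the library with fewest crystallin counts of its group, was the wild type library nearest to the cKO. Over the 9 tested members, wild type library 1 was the lowest of its group for 4 and the highest for 4. Atf4 fell 1.62-fold (log2 change -0.69, SE 0.125, edgeR adjusted p 0.00448). It passed whichever 1 library was left out, with changes of -0.85 to -0.63, and -0.85 was the value without wild type library 1. With totals only the change was -0.33 (edgeR adjusted p 0.0617), or -0.72 relative to the median of all features there. None of the 5 motifs was found in the promoter window of Atf4, nor in those of Ddit3, Ern1 and Xbp1.

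Asns had the largest change of the members. It encodes asparagine synthetase, which makes asparagine from aspartate and glutamine and is a classical ATF4 target (chromosome 6, 7675169 to 7693254, minus strand). It had 18.6, 15.4 and 16.2 CPM in cKO libraries 1, 2 and 3 and 29.3, 39.2 and 34.1 CPM in wild type libraries 1, 2 and 3. The highest cKO library lay well below the lowest wild type library, which was again library 1. Asns fell 2.03-fold (log2 change -1.02, SE 0.14, edgeR adjusted p 0.00128) and remained called in all 15 alternative analyses. Its promoter is shown with that of Chac1, another ATF4 target, because each held a CARE, in capitals, at chr6:7693214-7693243 on the minus strand and at chr2:119351029-119351076 on the plus strand.
Asns promoter: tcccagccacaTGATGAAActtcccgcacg
Chac1 promoter: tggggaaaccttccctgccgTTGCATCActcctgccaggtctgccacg
The Chac1 match lies on the opposite strand. The Asns match, at chromosome 6, 7693225 to 7693232, lies upstream of the RefSeq start only. It falls inside the GENCODE gene span given above, which reaches 7693254. Of the 4 members with a CARE match, Asns and Herpud1 fell, Trib3 was not called and Chac1 was not tested.

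Chac1 encodes an enzyme that degrades glutathione and is strongly induced by ATF4 (chromosome 2, 119351229 to 119354381, plus strand). In order of library number, the cKO had 18, 5 and 7 counts of Chac1 and the wild type had 6, 6 and 2. These correspond to 0.529, 0.417 and 0.706 CPM and to 0.29, 0.344 and 0.115 CPM, where 3 counts correspond to between 0.0882 and 0.303 CPM in the 6 libraries. The cKO libraries lay above the wild type libraries, but so few counts did not pass the filter. With no filter the log2 change was 1.08 (edgeR adjusted p 0.206). Of the tested features 24.4% had all cKO libraries above all wild type libraries. Trib3 encodes a pseudokinase that restrains ATF4 and is induced by it and by CHOP (chromosome 2, 152337422 to 152344032, minus strand). The cKO had 19, 16 and 6 counts of Trib3 and the wild type had 32, 15 and 8, and the groups overlapped. The log2 change was -0.28 (edgeR adjusted p 0.704) with a 95% interval of -1.48 to 0.92, so a 2-fold decrease lay within the interval and a 2-fold increase just outside it. A CARE in its window lies 15 bases into the RefSeq transcript, at chromosome 2, 152344039 to 152344046. That place is upstream of the GENCODE gene span given above, which ends at 152344032.

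Ddit3 encodes CHOP, the transcription factor of the late, death-promoting phase of ER stress (chromosome 10, 127290774 to 127296288, plus strand). It had 9.05, 8.43 and 7.77 CPM in cKO libraries 1, 2 and 3 and 10.1, 9.56 and 9.84 CPM in wild type libraries 1, 2 and 3. Every cKO library lay below every wild type library, but the distance was small. The log2 change was -0.22 (edgeR adjusted p 0.266) with a 95% interval of -0.55 to 0.11, so increases beyond 1.08-fold lay outside that interval. With totals only it was 0.13 (edgeR adjusted p 0.605). Other annotated genes share 10.9% of the exon bases of Ddit3, among them Mars on the opposite strand (68 bases) and a second gene model of the same name (105 bases), and their reads could not be separated. Ppp1r15a encodes GADD34, the phosphatase subunit that reverses eIF2 phosphorylation (chromosome 7, 45522916 to 45526268, minus strand). It had 13.3, 12.1 and 14.4 CPM in the cKO and 14.3, 13.6 and 11.6 CPM in the wild type, fully overlapping. The log2 change was 0.01 (edgeR adjusted p 0.97) with a 95% interval of -0.32 to 0.34. Its promoter window held a CRE upstream of the start, at chromosome 7, 45526273 to 45526280.

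**Figure D2:**
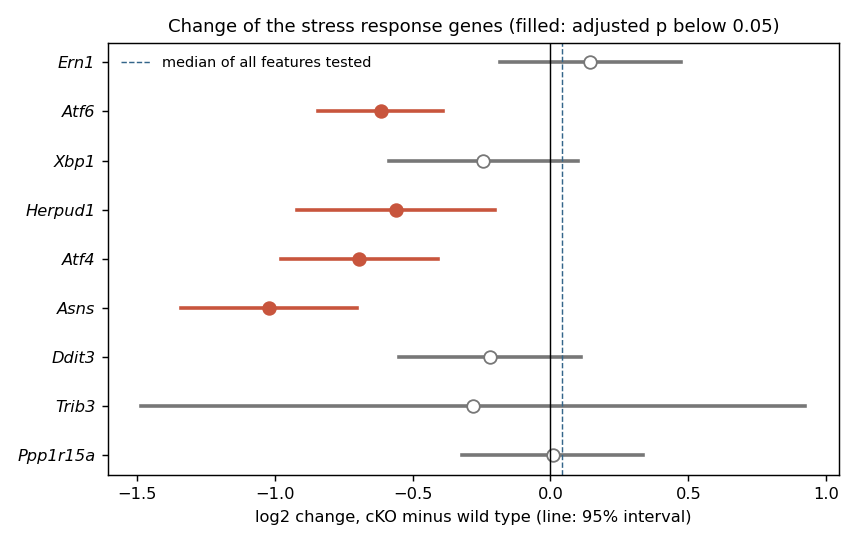
Log2 change of the 9 tested genes, cKO minus wild type, with 95% intervals from the edgeR fit, filled where the adjusted p was below 0.05, and a dashed line at the median of all features tested (0.04). The intervals of Asns, Atf4, Atf6 and Herpud1 lie below 0, those of Ern1, Xbp1, Ddit3 and Ppp1r15a span 0, and that of Trib3 is the widest.

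Further genes of both responses were taken in 8 lists of 97 genes, of which 93 could be tested. Of these 32 fell, 12 rose and 49 were not called, with a median log2 change of -0.16. That is 34.4% lower and 12.9% higher, against 16.8% and 15.9% of all features. Differences between lists, and between a list and other features, were not tested.

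Of 17 tested targets of ATF4 in amino acid supply 9 fell, 1 rose and 7 were not called (5 fell and 3 rose with library totals only), and the median log2 change was -0.61, the lowest of the lists. The share that fell was 52.9%, against 16.8% of all features. Slc7a5, a subunit of the large neutral amino acid transporter, fell 2.06-fold (log2 -1.05, edgeR adjusted p 0.00232), with 38.0, 54.3 and 50.03 CPM in cKO libraries 1, 2 and 3 and 79.7, 107 and 106 CPM in wild type libraries 1, 2 and 3. Mthfd2, a mitochondrial folate enzyme gene, fell 1.90-fold, from 47.1 ± 5.55 to 24.7 ± 2.12 CPM. Psat1, an enzyme gene of serine synthesis, had 98.2 ± 5.45 CPM in the cKO and 178 ± 17.3 in the wild type, a 1.81-fold decrease (edgeR adjusted p 0.000643). The libraries of the groups did not overlap for these genes. The mitochondrial PEP carboxykinase gene Pck2 went the other way and rose 2.24-fold, from 10.2 ± 2.13 to 22.8 ± 1.6 CPM (edgeR adjusted p 0.00184). Slc3a2, the partner subunit of Slc7a5, was not called (log2 -0.21, edgeR adjusted p 0.266), though it was without wild type library 1 (0.0346), and Shmt2 was not called (-0.10, 0.394). The number that fell was between 6 and 10 when 1 library was left out. Wild type library 1 was the lowest of its group for 12 of the 17 genes (70.6%), against 38.1% of all features tested.

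Targets of ATF4 that encode regulators and secreted or stress proteins included 3 that rose, 4 that fell and 3 not called of 10 tested. These are 40% lower and 30% higher, against 16.8% and 15.9% of all features. With library totals only, 5 rose and 2 fell. Gdf15 (1 count in the cKO and 9 in the wild type) and Fgf21 (1 and 0) were not tested. Nupr1, a small stress-induced chromatin protein gene, rose 2.68-fold, with 312, 234 and 230 CPM in cKO libraries 1, 2 and 3 and 65.9, 102 and 122 CPM in wild type libraries 1, 2 and 3 (edgeR adjusted p 0.00227). Vldlr, a lipoprotein receptor gene, had 64.8 ± 6.28 CPM in the cKO and 173 ± 34.8 CPM in the wild type, a 2.68-fold decrease (edgeR adjusted p 0.000482). The others that fell, outside the rule for named genes, were Atf5 (log2 -0.96, edgeR adjusted p 0.00333), Eif4ebp1 (-0.38, 0.0268) and Ddit4 (-0.28, 0.0491). Atf3, a stress-induced transcription factor gene, rose from 1.09 ± 0.612 to 2.93 ± 0.705 CPM (log2 1.41, edgeR adjusted p 0.0281). Atf3 did not pass when cKO library 1 (0.0717), cKO library 2 (0.0755), wild type library 2 (0.103) or wild type library 3 (0.10) was left out. Stc2, a secreted glycoprotein gene, rose from 2.04 ± 0.735 to 4.25 ± 1.08 CPM (edgeR adjusted p 0.0394), a call lost whichever 1 library was left out (edgeR adjusted p between 0.0505 and 0.131). Cebpg, a dimer partner of ATF4 (log2 0.11, edgeR adjusted p 0.392), and Sesn2 (0.14, 0.614) were not called. The list had 1 to 3 genes higher and 2 to 4 lower when 1 library was left out, with 1 higher without cKO library 1 or 2 or wild type library 2 or 3, and 2 lower without cKO library 2 or 3 or wild type library 2 or 3.

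Among genes for eIF2, its kinases, its exchange factor and its phosphatases, 7 of 14 tested fell, 1 rose and 6 were not called. That is 50% lower and 7.14% higher, against 16.8% and 15.9% of all features. With library totals only, 2 fell and 3 rose. Eif2s1, the subunit that carries the regulated phosphorylation site, fell 1.84-fold, with 118, 124 and 105 CPM in cKO libraries 1, 2 and 3 and 182, 248 and 209 CPM in wild type libraries 1, 2 and 3 (edgeR adjusted p 0.00184). Eif2s2, the beta subunit gene, fell 1.93-fold, from 18.9 ± 2.86 to 9.72 ± 1.03 CPM. Of the genes for eIF2B, the exchange factor that phosphorylated eIF2 blocks, Eif2b3 fell 1.41-fold (edgeR adjusted p 0.00734) and Eif2b5 1.35-fold (0.0166), the latter not without wild type library 2 (0.0633) or 3 (0.0521). Eif2s3x (log2 -0.11, edgeR adjusted p 0.481) and the constitutive phosphatase subunit gene Ppp1r15b (-0.18, 0.184) were not called. The gene that rose was Eif2ak3, which encodes PERK and is outside the rule for named genes. It rose by 0.36 (edgeR adjusted p 0.0395), a call that DESeq2 did not make. Without 1 library, 3 to 7 genes of the list fell, with 4 without cKO library 2 or 3 and 3 without wild type library 2 or 3, and Eif2ak3 was called only when wild type library 1 was the one left out.

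**Figure D3:**
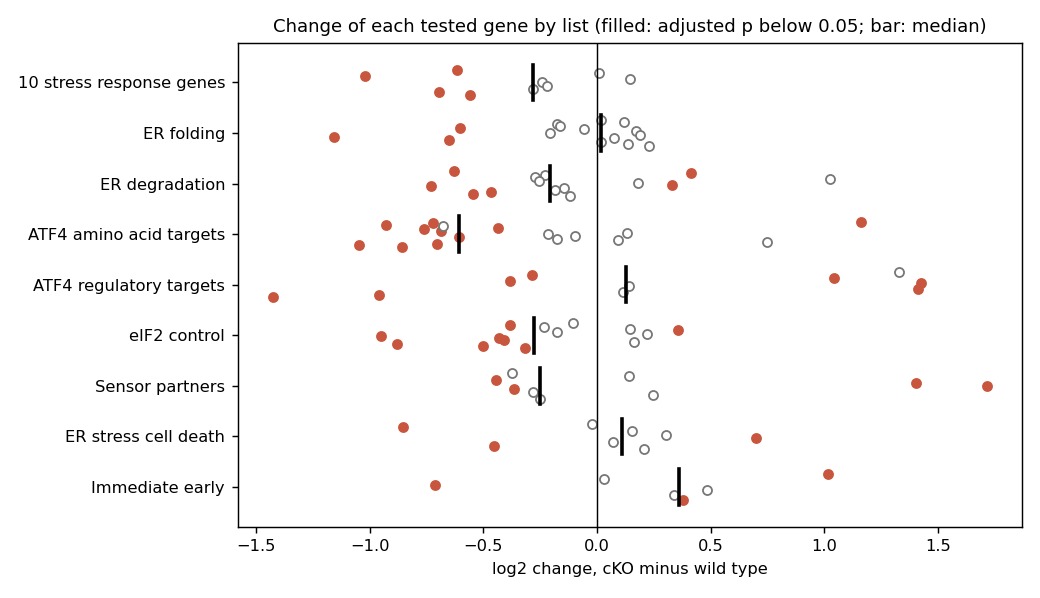
Log2 change of every tested gene, cKO minus wild type, for the 9 tested stress response genes and the 8 further lists, with filled points at an adjusted p below 0.05 and a bar at each list's median. The ATF4 targets in amino acid supply lie mostly to the left of 0 at TMM scaling (median -0.61), and the ER folding genes lie around 0 (median 0.02) with Pdia6 far to the left.

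Chaperones and folding enzymes of the ER are the main targets of ATF6 and XBP1. Of 15 tested genes 3 fell and 12 were not called (1 fell and 4 rose with library totals only), and the median log2 change was 0.02. The share that fell was 20%, against 16.8% of all features. None rose by edgeR, DESeq2 or limma-voom, and 1 gene was higher at an unadjusted p under 0.05 by each tool, by edgeR P4hb. Pdia6, a protein disulfide isomerase gene, fell 2.23-fold, with 610, 518 and 507 CPM in cKO libraries 1, 2 and 3 and 1080, 1311 and 1252 CPM in wild type libraries 1, 2 and 3 (log2 -1.15, SE 0.13, edgeR adjusted p 0.00051). Dnajc3, an inhibitor of PERK and a co-chaperone, fell 1.57-fold, from 158 ± 11.03 to 101 ± 3.57 CPM, and the co-chaperone gene Dnajb11 fell 1.52-fold. Hspa5, which encodes BiP, the chaperone that holds the ER sensors inactive, had 979, 761 and 646 CPM in cKO libraries 1, 2 and 3 and 911, 821 and 749 CPM in wild type libraries 1, 2 and 3. Both the highest and the lowest of these 6 values belonged to the cKO. The log2 change of Hspa5 was -0.06 (edgeR adjusted p 0.81) with a 95% interval of -0.43 to 0.32, and Canx, which encodes calnexin, was not called (-0.21, edgeR adjusted p 0.158).

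The cKO pools differed among themselves in these genes. cKO library 1 was the highest of the 3 cKO libraries for 14 of the 15 ER folding genes, against 36.5% of all features tested, and cKO library 3 was the lowest for 11 of them, against 38.7%. Relative to each gene's mean over the 6 libraries, the median log2 level of the list was 0.18, -0.10 and -0.15 in cKO libraries 1, 2 and 3 and 0.07, 0.03 and -0.05 in wild type libraries 1, 2 and 3. This was seen after the values were known. Among the members Xbp1, Herpud1, Atf4 and Ddit3 had that order of cKO libraries and Atf6 and Ern1 the opposite order. Of the 6 immediate early genes tested, 5 were highest in cKO library 1 and 6 lowest in cKO library 3. Related lists shared part of this order. cKO library 3 was lowest for 9 of 14 ER degradation, 10 of 14 eIF2 control and 8 of 10 regulatory ATF4 target genes. In these lists cKO library 1 was highest for 8, 7 and 5 genes. For sensor partners and cell death genes cKO library 3 was lowest for 5 of 9 and 5 of 8, but cKO library 1 was highest for only 2 and 1. cKO library 1 was also the most deeply sequenced, with 28391662 counts, and had the highest sum of neural retina markers (576 CPM), and the part of either was not tested. For the ATF4 targets in amino acid supply the cKO medians were close together, at -0.23, -0.21 and -0.16. They lay below those of 0.07, 0.40 and 0.28 in wild type libraries 1, 2 and 3. Gene by gene, cKO library 3 was still the lowest cKO library for 10 of these 17 genes (58.8%, against 38.7% of all features tested). cKO library 1 was the highest for 7 of them (41.2%, against 36.5%).

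**Figure D4:**
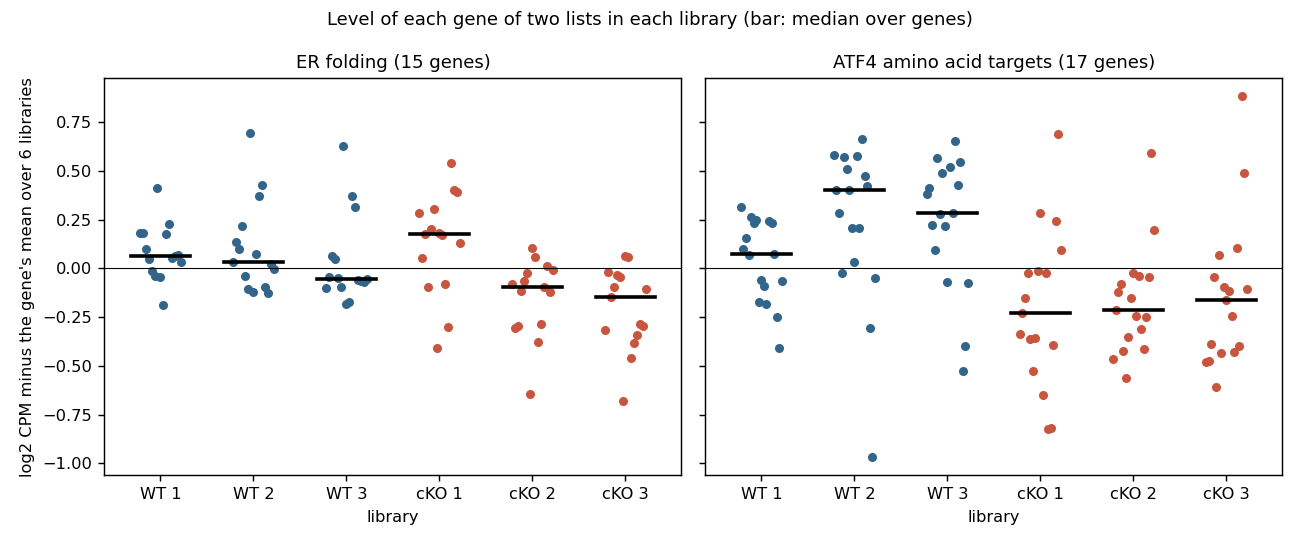
Log2 CPM of each gene minus its mean over the 6 libraries, by library, for the 15 ER folding genes (left) and the 17 ATF4 targets in amino acid supply (right), with a bar at the median over genes. On the left cKO library 1 has the highest median (0.18) and cKO library 3 the lowest (-0.15), and on the right all cKO medians lie below all wild type medians.

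Of 14 tested genes of ER-associated degradation, which moves misfolded proteins to the proteasome, 4 fell, 2 rose and 8 were not called, and with library totals only 1 fell and 4 rose. These are 28.6% lower and 14.3% higher, against 16.8% and 15.9% of all features. Edem3, a mannosidase-like gene, fell 1.66-fold (98.5 ± 10.6 CPM in the cKO, 163 ± 18.4 in the wild type, edgeR adjusted p 0.00309), and Vimp, now named Selenos, fell 1.46-fold. The ubiquitin-conjugating enzyme gene Ube2j1 fell 1.38-fold (edgeR adjusted p 0.0152). Ube2j1 no longer passed without wild type library 2 (0.0591) or 3 (0.0551). The genes that rose, outside the rule for named genes, were Sel1l by 0.33 (edgeR adjusted p 0.0199) and Edem1 by 0.41 (0.0341). The number that rose was 1 without cKO library 1 or 3, and 0 without cKO library 2 or wild type library 2 or 3. Ubxn4 (log2 -0.18, edgeR adjusted p 0.118) and Os9 (0.18, 0.16) were not called.

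Of 9 tested partners and relatives of the sensors 2 rose, 2 fell and 5 were not called. These are 22.2% in each direction, against 16.8% lower and 15.9% higher of all features. With library totals only, 4 rose and 0 fell. Without wild type library 1 there were 4 that fell. Creb3l2, a relative of ATF6 that is also cut from the ER membrane, rose 2.65-fold, with 137, 234 and 172 CPM in cKO libraries 1, 2 and 3 and 76.5, 62.7 and 65.2 CPM in wild type libraries 1, 2 and 3 (log2 1.41, edgeR adjusted p 0.00112). Creb3l1, a relative known from bone and other matrix-secreting tissue, rose 3.28-fold, with 6.06, 4.43 and 16.7 CPM in the cKO and 3.48, 2.12 and 2.48 CPM in the wild type (edgeR adjusted p 0.0271). Without cKO library 3 the log2 change of Creb3l1 was 0.98 in place of 1.71, and the gene was still called. That library also had the highest periocular mesenchyme sum (416 CPM), whose part was not tested. Creb3l1 did not pass without wild type library 2 (0.108) or 3 (0.0876), nor with limma-voom (0.0516). Creb3 fell 1.36-fold and Mbtps2, which encodes the protease that makes the second cut in ATF6, fell 1.29-fold (edgeR adjusted p 0.0324 and 0.0424). Neither passed when cKO library 1 (0.0509 and 0.0992), cKO library 3 (0.0735 and 0.0895), wild type library 2 (0.113 and 0.141) or wild type library 3 (0.0741 and 0.0963) was left out, nor did Mbtps2 without cKO library 2 (0.0514). Mbtps1, which encodes the protease of the first cut, had a log2 change of 0.24 (edgeR adjusted p 0.0827) and the tRNA ligase gene Rtcb, which joins the ends of spliced Xbp1, of -0.28 (0.0825). Rtcb passed without wild type library 1 (0.046).

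Of 8 tested genes tied to cell death under ER stress 1 rose, 2 fell and 5 were not called, so that 37.5% were called against 32.6% of all features. Bcl2l11, which encodes the pro-death protein BIM, rose 1.62-fold, from 46.1 ± 1.79 to 74.8 ± 5.72 CPM (edgeR adjusted p 0.00115). The death receptor gene Tnfrsf10b fell 1.81-fold, from 16.1 ± 2.74 to 8.93 ± 0.787 CPM, and the ER oxidase gene Ero1l fell 1.37-fold (edgeR adjusted p 0.00676 and 0.0117). Bax (log2 -0.02, edgeR adjusted p 0.909) and Bcl2 (0.21, 0.269) were not called.

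Immediate early genes, which respond to handling as well as to signals, were measured beside the stress genes. Of 6 tested genes 2 rose, 1 fell and 3 were not called, or 3 rose and 0 fell with library totals only. At TMM scaling that is 33.3% higher and 16.7% lower, against 15.9% and 16.8% of all features. Ier2 rose 2.02-fold, from 14.1 ± 2.06 to 28.5 ± 4.86 CPM, and Jun rose 1.3-fold (edgeR adjusted p 0.00268 and 0.0497). Jun did not pass when cKO library 1 (0.13), cKO library 2 (0.106), wild type library 2 (0.186) or wild type library 3 (0.188) was left out. The phosphatase gene Dusp1 fell 1.64-fold, from 40.3 ± 3.04 to 24.4 ± 4.50 CPM. Egr1 (log2 0.34, edgeR adjusted p 0.448) and Junb (0.48, 0.133) were not called, but Egr1 was higher without wild type library 1 (0.0142).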

How the data were processed

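Per the labels' protocols, mRNA was taken with poly-T beads, made into libraries with a kit that does not mark strand and read from a single end over 51 bp. For each library and feature the authors deposited an unscaled count, its CPM and its RPKM, per the file headers. The deposited CPM equalled the count over the library total within 1e-06, except for 26 features, which were left out because count and CPM disagreed (at most 0.0636% of a library's counts). The RPKM made by the authors, per the file headers, divide by a length that the files do not list. The submitters' processing notes list the genome build GRCm38 and the package edgeR. The aligner, the counting tool and the handling of reads with several matches were not given in the sources used here.

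Counts were analysed in R 4.3.3 with edgeR 4.0.16 (filterByExpr with a minimum count of 10, TMM, quasi-likelihood test, no other term). P-values were adjusted by the Benjamini-Hochberg method across the 14271 features tested. The SE was taken as the absolute log2 change over the square root of the F statistic of the edgeR test. The 95% intervals use this SE and a t quantile. Counts of 3 were taken as the limit that 0 counts allow, for counting error only. Alternatives were DESeq2 1.42.0, limma-voom (limma 3.58.1), other scalings and filters, a replicate block and leaving out libraries. The fitting procedure was also tested on simulated data with known changes, from which no reported value comes. Coordinates come from GENCODE mouse release M21, promoters from RefSeq (GRCm38.p6).

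The members and lists were chosen with earlier results of these data known. Named beside Prox1 and the 10 members were, of each of the 8 further lists, up to 4 called genes of largest change and up to 2 uncalled genes of highest CPM, with exceptions marked. A gene that this rule names is not reported here.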

Additional observations from a re-analysis of the deposited data

How the results depend on the processing

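Of 134 values of the members' log2 changes under alternatives, 112 kept their direction and their side of the threshold, 8 lost a call and 2 gained one. The 12 that changed sign belonged to genes that were not called. With library totals only, Xbp1 became 0.11, Ddit3 0.13 and Trib3 0.042, and among other genes Canx 0.14, Hspa5 0.30, Ubxn4 0.17, Slc3a2 0.15, Shmt2 0.25, Eif2s3x 0.25, Ppp1r15b 0.18, Rtcb 0.073 and Bax 0.33, as the median of all features rose to 0.39. Ppp1r15a became -0.01 with DESeq2 (-0.0066), -0.0018 with no filter, -0.05 without cKO library 3 and -0.10 without wild type library 3. Trib3 became 0.03 without cKO library 1 and 0.23 without wild type library 1, and Bax 0.027 with upper quartile scaling. Without cKO library 3, Hspa5 became 0.075 and Bax 0.10, and Sesn2 became -0.00062 without wild type library 2. Without 1 library at a time, the values of these genes lay between -0.74 and 0.23 for Trib3, -0.10 and 0.068 for Ppp1r15a, -0.23 and 0.075 for Hspa5, and -0.17 and 0.096 for Bax. Leaving out both cKO library 3 and wild type library 1, chosen after the data were seen, gave -0.046 for Ern1, 0.32 for Trib3, -0.0053 for Ppp1r15a, 0.13 for Hspa5 and 0.091 for Bax.

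With library totals only, 6368 features were called, and 1 member was called lower and 1 higher. The numbers lower and higher were then 1 and 4 for ER folding, 1 and 4 for ER degradation, 5 and 3 for ATF4 amino acid targets, 2 and 5 for ATF4 regulatory targets, 2 and 3 for eIF2 control, 0 and 4 for sensor partners, and 1 and 2 for cell death, and 0 immediate early genes fell. For eIF2 control 0 rose with DESeq2, with no filter or with the replicate block. For sensor partners 1 fell with upper quartile scaling and 1 rose with limma-voom. For immediate early genes 1 rose with no filter and 4 without both named libraries. Without 1 library at a time, 2267 to 5317 features were called, the lowest counts being 2267 without wild type library 2 and 2475 without wild type library 3. Members lower were 3 to 5 and members higher 0. The ranges were 1 to 3 higher and 2 to 4 lower for ATF4 regulatory targets, 0 to 2 higher for ER degradation, 1 to 3 higher for immediate early genes, 0 to 4 lower and 1 to 2 higher for sensor partners, and 3 to 7 lower and 0 to 1 higher for eIF2 control. The cause of these shifts was not tested.

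Libraries of both groups share replicate numbers 1 to 3, but deviations from the group means correlated by -0.03, 0.25 and 0.11 across genes for numbers 1, 2 and 3, and cKO library 1 correlated best with another number, so the numbers were not taken as pairs. The replicate block gave 4176 called features, and Herpud1 was then not called (log2 -0.56, edgeR adjusted p 0.0635). Counts were lowest for Trib3, with 41 in the cKO and 55 in the wild type, and Chac1, with 30 and 14.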
